A study of Mus musculus with 2 samples.

Results

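The vessel-wall genes *Cldn5*, *Flt1*, *Aplnr* and *Adgrf5* were followed across single cells, single molecules and regions of a pair of MERFISH sections of the embryonic mouse head. They are 4 of the 500 genes of the probe panel, and they were chosen by name as a group, with earlier results of these data known. In both sections the 4 genes lay in the same cells more often than their separate shares among cells of equal depth would give. Region was not part of that expectation, and other gene pairs of the panel were not set beside it. The levels of all 4 genes were highest in a thin band along the outer edge of the brain. *Cldn5* stood out most there against the tissue farther outside, and for *Adgrf5* that gap lay within counting error. Beyond 50 µm from that edge, *Flt1*, *Aplnr* and *Adgrf5* were higher outside the brain than in its interior. *Cldn5* was higher in the interior, by 0.76 on the log2 scale per panel transcript in the control and by 0.15 in the KO. The median gene of the panel was higher there too, by 0.48 and 0.46. Per mm², *Cldn5* stood at 690 transcripts in the control interior against 328 outside, and at 3240 against 1419 in the KO. The 50 µm distance was set after the levels had been seen, and this split was not repeated with other outlines. In that outside tissue, cells with at least 2 transcripts of *Flt1*, *Aplnr* and *Adgrf5* in sum held fewer *Cldn5* transcripts than such cells of the interior. Those outside cells also held more *Aplnr* transcripts per cell, but *Aplnr* is 1 of the genes they were chosen on.

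Endothelial cells line blood vessels and, in the developing brain, grow inward from a vessel plexus on the brain surface. Vascular endothelial growth factor and its receptors guide this ingrowth, and the new brain vessels acquire tight junctions that build the blood-brain barrier. *Cldn5* encodes claudin-5, the main claudin of those tight junctions. *Flt1* encodes VEGF receptor 1, which binds the growth factor and limits how much of it reaches the main signalling receptor. *Aplnr* encodes the receptor of the peptide apelin and is known from growing vessels and veins. *Adgrf5* encodes an adhesion G-protein-coupled receptor (GPR116) found on endothelium of many organs.

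MERFISH reads single RNA molecules in tissue from barcodes imaged over many rounds. The control was 1 coronal section at E16.5 of genotype *Sst-Cre/tdTomato*, and the *Dnmt1* KO was 1 coronal section at E16.5 of genotype *Sst-Cre/tdTomato/Dnmt1 loxP2*. Both animals carry Cre under the *Sst* locus and the tdTomato reporter, and only the KO also carries the loxP-flanked *Dnmt1* allele, which Cre removes in *Sst*-expressing cells. Whether any recombination took place in endothelial cells was not examined. *Dnmt1* was not among the panel genes, so the genotype could not be checked here. The sections were 10 µm thick and were cut from whole frozen heads, so that other tissue of the head, not identified further here, surrounds the brain. They held 108533 control and 110004 KO segmented cells, with 0 cell identifiers in common, and 2842355 control and 13437174 KO panel transcripts in cells (medians of 20 and 101 per cell). Run and genotype cannot be told apart, since each group is 1 section of 1 run, and nothing below has a replicate check. Intervals of counts and shares are exact 95% intervals (Poisson and Clopper-Pearson), those of log2 differences set opposite Poisson bounds against each other and are therefore wider than 95% intervals, and all cover counting error only.

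RefSeq promoter entries (build GRCm38.p6) were found for 3 of the 4 members and are shown because these genes were detected in the same cells. The 250 bases before the annotated start are printed 5′ to 3′ on the gene's strand. Capitals mark AGGAAG or CGGAAG on either strand, forms of the core bound by ETS factors, a family with known roles in endothelial genes.

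*Cldn5*, chr16:18776597-18776846, plus strand: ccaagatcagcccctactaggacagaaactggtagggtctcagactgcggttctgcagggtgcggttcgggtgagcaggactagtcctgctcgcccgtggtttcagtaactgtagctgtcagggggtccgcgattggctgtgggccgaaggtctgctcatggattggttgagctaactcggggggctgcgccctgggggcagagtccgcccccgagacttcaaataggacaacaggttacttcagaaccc
*Flt1*, chr5:147726012-147726261, minus strand: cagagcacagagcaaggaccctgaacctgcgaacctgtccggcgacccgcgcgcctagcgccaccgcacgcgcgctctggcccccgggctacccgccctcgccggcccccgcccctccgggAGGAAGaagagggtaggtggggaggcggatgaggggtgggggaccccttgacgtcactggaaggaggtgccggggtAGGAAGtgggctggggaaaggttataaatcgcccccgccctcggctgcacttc
*Adgrf5*, first of 2 listed starts, chr17:43360181-43360430, plus strand: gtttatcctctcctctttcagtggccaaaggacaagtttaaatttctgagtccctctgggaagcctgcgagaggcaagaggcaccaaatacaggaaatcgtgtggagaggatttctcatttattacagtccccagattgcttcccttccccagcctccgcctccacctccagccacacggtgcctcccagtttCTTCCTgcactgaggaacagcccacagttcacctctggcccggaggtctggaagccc

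The *Flt1* window held 2 matches, which began 129 and 53 bases before the start, and the *Adgrf5* window held 1, which began 57 bases before it. No match lay in the *Cldn5* window or before the second *Adgrf5* start. Of 32851 promoter windows of the same length in the table, 39.2% held at least 1 of these letters' matches, so a match is a description and not a site.

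*Cldn5* was the most counted of the 4 genes, with 10352 transcripts in the cells of the control and 52147 in those of the KO. *Aplnr* gave 3259 and 15658 transcripts, *Flt1* 1888 and 10733, and *Adgrf5* 776 and 6084. These counts depend on the probes of each gene and do not rank the genes against each other. Blank barcodes, which code for no gene, had a median of 248.5 control and 1181 KO transcripts in cells, so that *Cldn5* lay at 41.7 and 44.2 times the median blank. *Adgrf5* lay at only 3.12 times the median blank in the control, below the highest single blank (829 transcripts), and at 5.15 times in the KO. Of the decoded molecules of the 4 genes, 79.9% to 87.3% fell inside cells (control), and 79.5% to 84.8% did so in the KO, beside panel medians of 83.3% and 81.9%. The other results use levels, given as counts per 1000000 panel transcripts (CPM) over cells with at least 20 panel transcripts, 55231 in the control and 101250 in the KO.

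The first question was whether the 4 genes lie in the same cells. Of the control cells above the minimum, 50348 held none of the 4, 3296 held 1, 1167 held 2, 367 held 3 and 53 held all 4. In the KO the counts were 86146, 8720, 3141, 2098 and 1145. Among cells with *Cldn5*, at least 1 of the other 3 genes was held by 43.1% of 3157 in the control (interval 41.3 to 44.8), and by 62.1% of 8929 in the KO (interval 61.1 to 63.1). The KO share was 45.9% after its counts had been thinned at random to the control total. With every cell thinned to 25 transcripts, the shares were 32.3% (30.2 to 34.4) for the control and 40.0% (38.5 to 41.5) for the KO, so the gap shrank under both and stayed wider than counting error under the second. The second left out 64649 shallower control cells but only 10432 KO cells, so it sets unlike parts of the sections side by side.

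Pair by pair, 50.8% of control cells with *Flt1* also held *Cldn5*, against 5.72% of all control cells. In the KO these shares were 63.2% and 8.82%. Cells with *Aplnr* held *Cldn5* in 48.9% of control and 55.3% of KO cells, and cells with *Adgrf5* did in 37.5% and 54.1%. To take depth into account, the cells of each section were split into 20 quantile bins by their panel transcripts, and the cells expected to hold both genes were summed over bins from the product of the shares. All 6 pairs exceeded that number in both sections. The excess ran from 5.20-fold for *Cldn5* with *Adgrf5* (236 cells, 4.56 to 5.91) to 7.71-fold for *Flt1* with *Aplnr* (478 cells, 7.03 to 8.43) in the control, and from 4.58-fold (*Aplnr* with *Adgrf5*) to 5.62-fold (*Cldn5* with *Flt1*) in the KO. After thinning, the KO pairs ran from 6.88-fold to 8.22-fold.

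**Figure D1:**
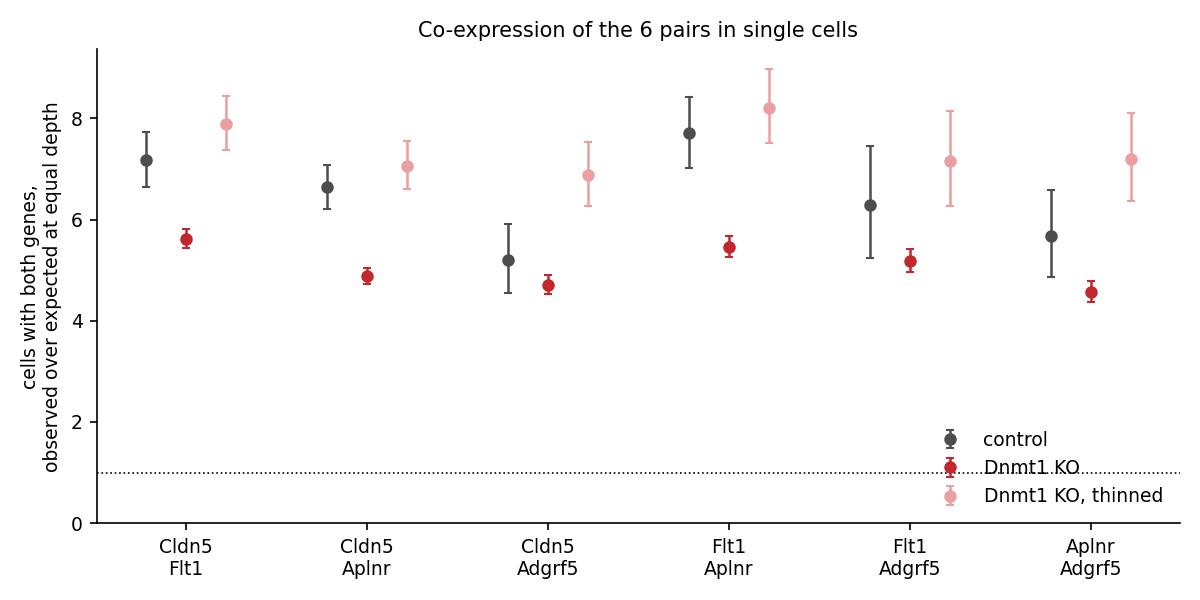
Cells that hold both genes of a pair, as observed over expected at equal depth (vertical axis, linear from 0), for the 6 pairs on the horizontal axis. Points are the control, the Dnmt1 KO and the KO thinned to the control total, bars are exact Poisson 95% intervals and the dotted line marks a ratio of 1; every point lies between 4.58 and 8.22.

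How many transcripts of one gene a cell held went with whether it held another. Of control cells with 1 *Cldn5* transcript, 29.1% held another of the 4 genes, against 62.4% of those with 4 to 7 and 91.7% of the 24 with 16 or more. The last were also deeper, with a median of 88.5 panel transcripts against 41 and 43 in the other classes named. In the KO the same shares were 37.6%, 78.4% and 98.4%, at median depths of 145, 146 and 184.5. Cells with 1 transcript of *Flt1* held another member in 60.4% (control) and 61.5% (KO), and those with 2 or 3 did in 84.7% and 93.3%. For *Aplnr* the shares rose from 52.0% to 76.3% in the control and from 47.7% to 87.2% in the KO over the same steps. Of the 26 control cells with 2 or 3 *Adgrf5* transcripts, 73.1% held another member, as did 93.8% of 855 KO cells.

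Neighbouring cells can lend transcripts to a segmented outline, so 2 other cell classes give the background. Each cell was thinned to 25 transcripts. *Cldn5* then stayed in 4.46% of all 43884 control cells and 4.23% of all 99572 KO cells of that depth. Deep-layer-neuron-marked cells (at least 2 of *Tbr1*, *Fezf2* and *Slc17a7*), which should lack the gene, held it in 1.89% of 4442 control and 1.62% of 16394 KO cells. Their unthinned shares were 2.63% and 5.12%, at median depths of 42 and 125 transcripts. Microglia-marked cells (at least 2 of *Csf1r*, *Cx3cr1* and *C1qa*) held it in 7.95% of 830 control cells and 10.8% of 2433 KO cells, more than all cells together. At least 2 different members were left in 0.36% (control) and 0.439% (KO) of the neurons, 2.17% and 4.97% of the microglia and 1.68% and 1.95% of all cells. A single member in a cell therefore says little by itself, and a cell with 2 members is not free of this background either. Why microglia-marked cells stood above all cells was not tested.

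Pairing was also seen between molecules, without segmentation. A distance of 10 µm can reach a neighbouring cell, so molecules of the same cell and of adjacent cells are not told apart. Of all decoded control molecules of *Flt1*, inside or outside cells, 65.2% had a *Cldn5* molecule within 10 µm, against 12.1% of 200000 molecules drawn from the other panel genes. For *Aplnr* the share was 63.8% and for *Adgrf5* 46.5%. In the KO, thinned to the control number of panel molecules, the shares were 65.5%, 61.3% and 57.4%, against 11.6% of the drawn molecules. *Adgrf5* was thus the least tightly paired of the 3 with *Cldn5* in both sections, and it is also the gene nearest to the blank level.

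A cell with transcripts of at least 2 of the 4 genes is called endothelial-marked from here on. There were 1587 such cells above the minimum in the control and 6384 in the KO, and densities below count such cells of any depth. Classical endothelial genes such as *Pecam1*, *Cdh5*, *Kdr* and *Tek* were not among the panel genes, so the name rests on the 4 members alone. Of a list of 60 vascular genes, 13 were on the panel beside the members. Relative to all other cells, 9 of them were more than 2-fold higher in endothelial-marked control cells, 10 were in KO cells and 0 were 2-fold lower in either. Among all non-member panel genes with at least 30 transcripts in these cells, 12.4% of 225 were that much higher and 34.7% lower in the control, and 11.1% of 495 higher and 22% lower in the KO.

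*Col15a1*, a collagen of vessel and other basement membranes, led in both sections, at 16085 CPM against 1685 CPM in control cells and 10263 against 1024 in KO cells. Its log2 difference was 3.26 (3.13 to 3.38) in control cells, and KO cells gave 3.33 (3.27 to 3.38). *Fzd4*, the receptor through which Wnt and norrin signals act on brain endothelium, was higher by 2.29 and 2.68, and *Cxcl12*, a chemokine, by 1.57 and 1.99. Genes of the mural cells that wrap vessels were also high. *Kcnj8* and *Abcc9*, subunits of a pericyte potassium channel, were higher by 2.48 and 2.49 in the control and by 3.13 and 3.24 in the KO, and *Pdgfrb*, the pericyte receptor for PDGF-B, was higher by 1.99 and 2.55. *Ednrb*, an endothelin receptor that is also on the radial glia list, differed by -0.28 and 0.09 and *Cxcr4* by 0.17 and 0.43, both below 2-fold.

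Of the non-member genes with the 10 highest differences, 7 were shared by both sections: *Abcc9*, *Cobll1*, *Col15a1*, *Fzd4*, *Junb*, *Kcnj8* and *Pdgfrb*. Genes of other cell types lay in the same outlines, and shares of this kind rise with depth. Endothelial-marked cells were deeper than other cells, with a median of 48 against 34 panel transcripts in the control and 159 against 106 in the KO. At least 2 of the 4 mural genes lay in 18.5% of endothelial-marked control cells and 42.2% of KO cells, against 2.25% and 4.69% of other cells. At least 2 of 7 connective-tissue genes lay in 23.8% and 42.7%, against 11.5% and 13.6%, and at least 2 of 3 microglial genes in 4.16% and 7.52%, against 1.54% and 2.08%. In the thinned KO, at a median of 42 panel transcripts, the mural share was 21.8% (19.9 to 23.7). It lay above that of the control (16.6 to 20.5), with intervals that overlap. The connective and microglial shares were 19.1% and 3.20%, below those of the control. At least 2 of 5 pallial neuron genes were rarer than in other cells, in 4.22% and 12.7% against 12.4% and 23.3%. For 2 of 5 radial glia genes the shares were 2.90% and 12.5%, against 7.26% and 13.1%. For 2 of 4 oligodendrocyte precursor genes they were 1.58% and 5.75%, against 2.61% and 4.18%, so these were not rarer in the KO. Endothelial-marked cells were also larger, with a median volume of 1508 against 1228 µm³ in the control and 1303 against 852 µm³ in the KO. The part of mixed outlines in these values was not tested.

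Across cells above the minimum, the member whose pattern was most like that of *Cldn5* was *Aplnr* in the control (Pearson's r of 0.37 on log2 counts per 1000 transcripts) and *Flt1* in the KO (r of 0.56). Among other panel genes *Cobll1* came closest to *Cldn5* in both sections (r of 0.21 over 55231 control cells and 0.39 over 101250 KO cells). The closest to *Aplnr* was *Col15a1* (0.29 and 0.35). *Flt1* had *Col15a1* first in the control (0.19) and *Abcc9* first in the KO (0.32), and *Adgrf5* had the same genes in the same places (0.10 and 0.23). All correlations are descriptions over cells of 1 library, and they rise with depth: thinned KO cells gave 0.35 for *Cldn5* with either *Flt1* or *Aplnr*, so the order of those genes was not told apart there, and *Col15a1* was then the other gene closest to *Adgrf5* (0.11).

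The second question was the level in the brain against the tissue outside it. The brain was outlined from 23 neural and 7 connective-tissue genes, without the members, and covered 10.0 mm² (control) or 9.24 mm² (KO), with 4.20 and 5.01 mm² outside. *Aplnr* showed the widest gap. Its level was 633 CPM in the control brain and 2884 CPM outside, a log2 difference of -2.19 (-2.34 to -2.03), and 638 against 3055 CPM in the KO, a difference of -2.26 (-2.32 to -2.20). *Flt1* was at 516 CPM in the control brain and 1219 CPM outside (-1.24, from -1.44 to -1.04), and at 573 against 1604 CPM in the KO (-1.48, from -1.56 to -1.41). *Adgrf5* was at 219 against 444 CPM in the control (-1.02, from -1.34 to -0.70) and at 336 against 867 CPM in the KO (-1.37, from -1.47 to -1.26). *Cldn5* differed far less, with 3748 CPM in the brain and 3866 CPM outside in the control (-0.04, from -0.14 to 0.05), and 3575 against 5007 CPM in the KO (-0.49, from -0.52 to -0.45).

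Thus 3 of the 4 genes were more than 2-fold lower per panel transcript in the brain in each section. In the control, *Flt1* and *Adgrf5* fell short of 2-fold with the outline at a neural share of 30% (-0.86 and -0.86), with smoothing of 100 µm (-0.93 and -0.73), with a minimum of 50 transcripts per cell (-0.87 and -0.66) and on 1 side of the section (-0.95 and -0.87), while *Aplnr* stayed past it. Among all panel genes with at least 30 transcripts on both sides, 24.5% of 444 were that much lower in the control section, as were 25.6% of 500 in that of the KO, so tissue-level gaps of this size were common on the panel. Summed over the 4 genes, the log2 difference was -0.72 (-0.79 to -0.65) for the control section, and the KO section gave -1.04 (-1.07 to -1.01). Per mm², counting cells of any depth, only *Aplnr* of the 4 genes was past 2-fold lower in the brain. It stood at 125 against 477 transcripts in the control and 724 against 1785 in the KO. *Flt1* stood at 104 against 202 and 651 against 938, and *Adgrf5* at 45.7 against 76.0 and 382 against 508. *Cldn5* was higher in the brain per mm², at 761 against 652 and 4058 against 2925. In bulk sums like these, fewer cells of a type and less RNA per cell cannot be told apart.

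**Figure D2:**
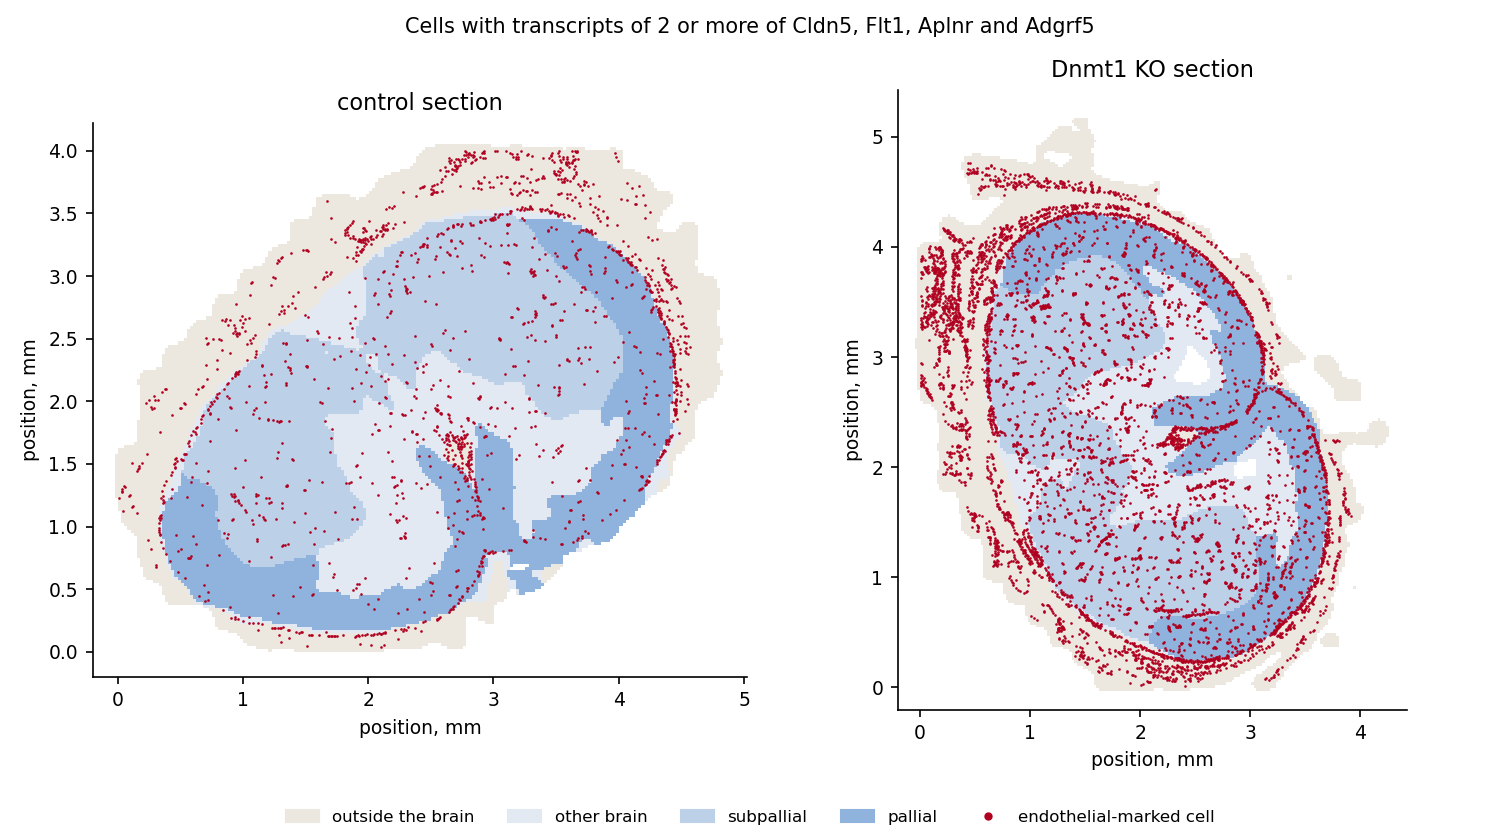
Positions (mm, both axes) of endothelial-marked cells, as red points, over the outlined regions of the control section (left) and the Dnmt1 KO section (right). A line of points follows the outer edge of the brain in both sections, and more points are drawn in the KO (3497 in the brain and 2917 outside it, at a median depth of 101 transcripts per cell) than in the control (1003 and 785, at 20).

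The map of endothelial-marked cells showed a thin line of them along the brain edge, and levels were therefore read by distance from that edge. *Cldn5* rose to 15798 CPM in the 50 µm outside the control edge and 14086 CPM in the 50 µm inside it. In the KO it rose to 17220 and 17463 CPM. From 50 to 100 µm inside, it was at 6656 CPM in the control and 2195 CPM in the KO, and from 50 to 100 µm outside at 1185 and 2012 CPM. The fall on the inner side was thus less steep in the control.

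The tissue was split into an edge band (50 µm on each side), the brain interior and the outside zone beyond the band, a division set after the profile had been seen. *Cldn5* stood at 14955 CPM in the control edge band, 3254 in the interior and 1928 in the outside zone. The KO values were 17353, 2810 and 2532 CPM. The edge band exceeded the interior by 2.20 (2.10 to 2.30) on the log2 scale in the control and by 2.63 (2.59 to 2.67) in the KO. *Aplnr* exceeded it by 2.90 and 3.06, *Flt1* by 1.79 and 2.10, and *Adgrf5* by 1.28 and 1.51. All 4 genes were past 2-fold here in both sections, beside 22.5% of 298 panel genes for the control section and 20.5% of 497 for the KO section. Against the outside zone the edge band was higher by 2.96 and 2.78 for *Cldn5*. For *Flt1* the difference was 0.61 and 0.54, and for *Aplnr* 0.55 and 0.43. For *Adgrf5* it was 0.37 (-0.15 to 0.89) and 0.08 (-0.08 to 0.24).

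**Figure D3:**
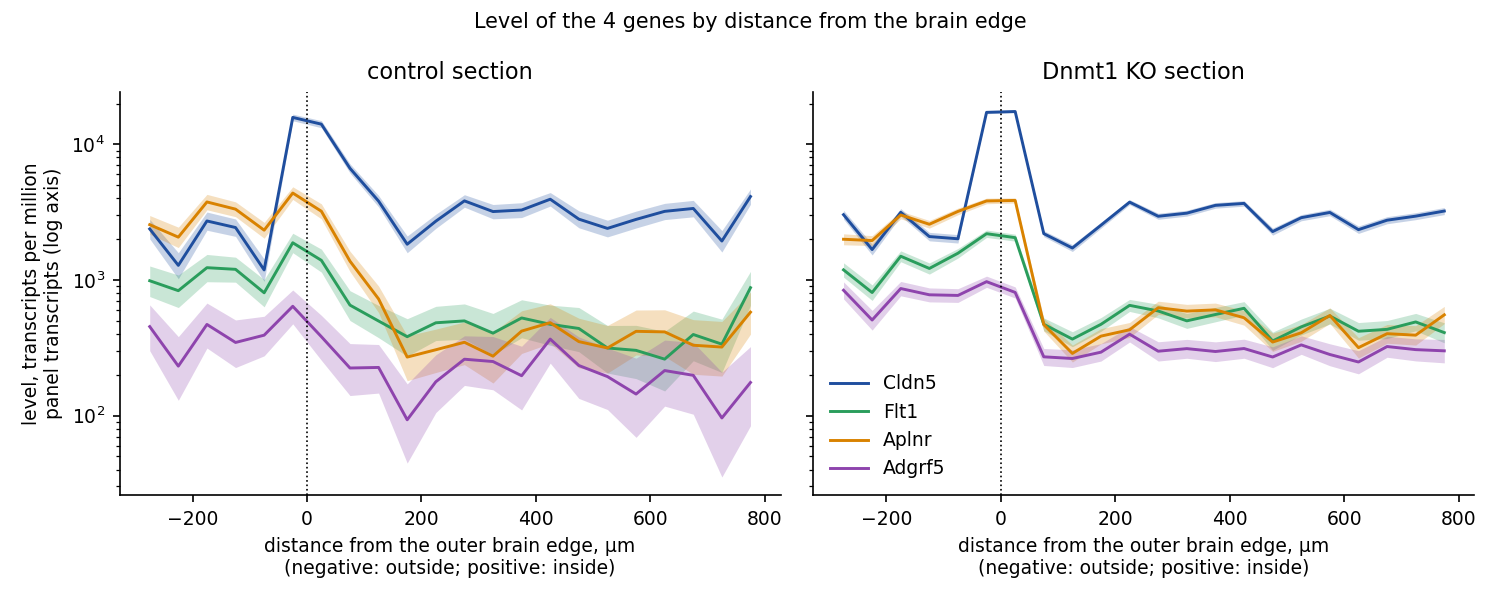
Level of each gene (CPM, log axis) in 50 µm steps of distance from the outer brain edge, negative outside and positive inside, in the control (left) and the Dnmt1 KO (right). Shaded bands are exact Poisson 95% intervals; Cldn5 peaks at 15798 CPM in the control and 17463 CPM in the KO beside the edge, and Aplnr, Flt1 and Adgrf5 are also high beside the edge, with single steps farther away that overlap between the sides for Flt1 and Adgrf5 in the control.

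With the edge band set aside, the 4 genes parted. *Cldn5* was higher in the interior than in the outside zone, by 0.76 (0.63 to 0.88) in the control and by 0.15 (0.10 to 0.20) in the KO. The panel median of this difference was 0.48 in the control and 0.46 in the KO. *Cldn5* thus lay near the middle of the panel, at the 55.9th and the 45th percentile. *Aplnr* differed by -2.35 and -2.64, *Flt1* differed by -1.18 and -1.57, and *Adgrf5* by -0.91 and -1.43. Past 2-fold lower were 2 of the 4 genes in the control and 3 in the KO, beside 25.4% of 426 and 27% of 500 panel genes. All these differences are per panel transcript. Per mm², counting cells of any depth, *Cldn5* stood at 690 transcripts in the control interior and 328 in the outside zone. The KO values were 3240 and 1419. Panel transcripts per mm² were 219496 and 171397 in the control, and 1152962 and 562491 in the KO. The *Cldn5* difference of interior and outside zone was also read under 3 other settings of the band width or the minimum per cell. It ran from 0.54 to 1.15 in the control and from 0.12 to 0.16 in the KO. The direction for *Cldn5* between brain and outside was not stable. With the outline at a neural share of 30% instead of 50%, *Cldn5* was higher in the brain by 0.99 in the control and by 0.55 in the KO. At 70% it was lower, at -0.50 (-0.58 to -0.41) and -1.25 (-1.28 to -1.21), and in the KO all 4 genes were then past 2-fold lower. With the outline unchanged the control turned to 0.40 (0.27 to 0.53) at a minimum of 50 transcripts per cell and to 0.09 (-0.10 to 0.27) on 1 side of the section.

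*Cldn5* made up 73.1% of the transcripts of the 4 genes in the control interior and 71.5% in the edge band, but 32.2% in the outside zone. The KO shares were 69.0%, 71.7% and 32.9%. *Aplnr* moved the opposite way, from 11.5% of the 4 in the control interior to 43.3% in the outside zone, and from 11.3% to 37.2% in the KO. The fall of the *Cldn5* share toward the outside zone was seen in both sections.

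To see whether this held within single cells, cells were chosen on the other 3 genes alone (at least 2 transcripts of *Flt1*, *Aplnr* and *Adgrf5* in sum). Such control cells held 4.14 *Cldn5* transcripts on average in the interior (338 cells, 3.93 to 4.37), 5.51 in the edge band (204 cells, 5.19 to 5.84) and 0.647 in the outside zone (485 cells, 0.578 to 0.723). The KO means were 10.2 (1934 cells), 13.8 (1059 cells) and 1.95 (2049 cells). Any *Cldn5* at all was found in 80.5% of these cells in the control interior, 85.3% in the edge band and 37.5% in the outside zone. In the KO the shares were 85.5%, 90.8% and 59.2%. The cells of the outside zone were not shallower, with a median of 57 panel transcripts against 45 in the control interior and 180 against 152 in the KO. Thinned to the control total, the KO means were 3.97 (3.77 to 4.17), 4.70 (4.47 to 4.95) and 0.612 (0.546 to 0.685). The intervals overlap those of the control in the interior and the outside zone. The thinned KO cells of the outside zone were shallower, with a median of 45 against 57 panel transcripts. Per panel transcript *Cldn5* was at 12190 CPM in them against 9587 CPM in the control. In the interior the medians were 41 and 45, and the levels 84163 and 81968 CPM. In the edge band the mean per cell lay below the control, but these KO cells were shallower (median of 43 against 59 panel transcripts), and per panel transcript *Cldn5* was higher in them, at 100400 against 80251 CPM. No direction between the sections is therefore read in the edge band or the outside zone. The chosen cells also differed in make-up, but *Aplnr*, *Flt1* and *Adgrf5* are the genes they were chosen on. A gap in *Aplnr* between zones is therefore not separate from the choice. In the control they held 2.12 *Aplnr* transcripts on average in the outside zone, 2.23 in the edge band and 1.38 in the interior. The KO means were 2.91, 3.26 and 1.77. Of control cells with *Aplnr*, 45.7% held another member in the outside zone and 70.6% in the interior. In the KO these shares were 62.3% and 63.5%. Whether this bears on the *Cldn5* means was not tested.

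**Figure D4:**
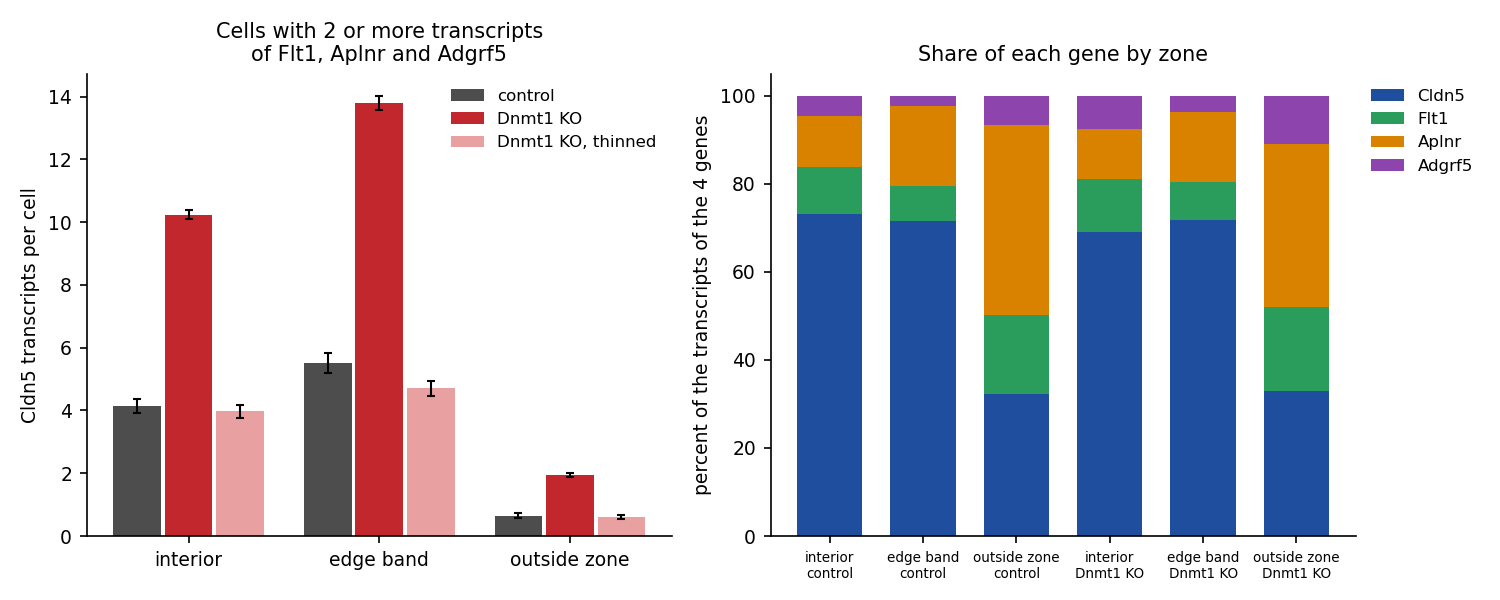
Left, Cldn5 transcripts per cell (linear axis from 0) among cells with at least 2 transcripts of Flt1, Aplnr and Adgrf5 in sum, by zone, for the control, the Dnmt1 KO and the thinned KO, with exact Poisson 95% intervals. Right, percent of the transcripts of the 4 genes that each gene made up by zone and section, where Cldn5 fell from 73.1% (control) and 69.0% (KO) in the interior to 32.2% and 32.9% in the outside zone.

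The reverse view, from *Cldn5* to the others, differed most between the zones at low counts. Of interior cells with 1 *Cldn5* transcript, 19.9% in the control and 24.8% in the KO held another member, whereas in the outside zone 48.0% and 62.2% did. Those outside cells were deeper, with medians of 52 against 37 panel transcripts in the control and 160 against 132 in the KO. At 4 to 7 transcripts the shares were 56.7% and 75.1% in the interior and 57.4% and 83.4% in the outside zone. Too few control cells of the outside zone held at least 8 *Cldn5* transcripts to give a share. In the KO the order turned at 8 to 15 transcripts. The share was then 91.8% (89.3 to 93.9) in the interior and 84.0% (76.2 to 90.1) in the outside zone, with intervals that overlap.

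The third question was the density of vessels by region. Within the brain, a pallial region (3.07 mm² control, 2.89 mm² KO) and a subpallial region (4.19 and 4.07 mm²) were outlined from neuronal genes. The control held 96.8 endothelial-marked cells per mm² (86.1 to 108) in the pallial and 90.1 (81.3 to 99.7) in the subpallial region, intervals that overlap. The KO held 399 (376 to 422) and 342 (324 to 360), intervals that do not, whereas those of the thinned KO, 142 (129 to 156) and 124 (113 to 135), overlap. At full depth and at least 25 transcripts, 2 or more members lay in 2.59% of KO deep-layer-neuron-marked cells beside 4.27% of KO brain cells, and in 0.923% beside 2.14% in the control. The rest of the brain held 120 and 419 per mm², and the tissue outside 187 and 582. Per 1000 segmented cells, the pallial and subpallial values were 11.6 and 10.0 in the control and 43.6 and 35.5 in the KO. Panel transcripts per mm² were 207463 and 232568 in the control and 1129615 and 1220928 in the KO, so the pallial region was the shallower one in both sections.

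The pallial over subpallial density differed by 0.10 (-0.21 to 0.42) on the log2 scale in the control and by 0.22 (0.06 to 0.38) in the KO. With *Meis2* kept in the outline, from which it was dropped after the maps had been seen, the differences were 0.39 (0.09 to 0.69) and 0.37 (0.22 to 0.52), so that choice decides whether the control interval includes 0. Leaving out the outer 50 µm of the brain, a choice made after the data had been seen, took the pallial area to 2.80 and 2.55 mm² and the subpallial area to 4.13 and 4.00 mm². The densities were then 89.9 and 87.9 per mm² in the control and 323 and 333 in the KO. The log2 differences were 0.03 (-0.30 to 0.36) and -0.04 (-0.22 to 0.13), and both intervals include 0. The level of the 4 genes in sum, which was higher in the pallial region by 0.22 (0.11 to 0.32) and 0.26 (0.22 to 0.30), differed by 0.11 (0.00 to 0.22) and -0.04 (-0.09 to 0.00) away from the edge.

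Over the whole regions the members differed among themselves. *Aplnr* was higher in the pallial region by 0.46 (0.14 to 0.78) in the control and by 0.43 (0.31 to 0.55) in the KO, and *Cldn5* by 0.20 (0.08 to 0.32) and 0.26 (0.21 to 0.30). *Flt1* was higher by 0.20 and 0.23, with an interval that includes 0 in the control (-0.14 to 0.53). *Adgrf5* differed by -0.08 and 0.04, with both intervals including 0.

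Vessel profiles were also traced from molecules alone, by linking member molecules within 10 µm and keeping groups of at least 5 molecules of at least 2 members. These held 70.4% of member molecules of the control brain. The control brain showed 54.7 profiles per mm² (46.8 to 63.7) in the pallial and 53.2 (46.4 to 60.6) in the subpallial region. The thinned KO showed 88.6 (78.1 to 100) and 70.5 (62.6 to 79.2). Outside the brain the values were 72.7 and 69.9 per mm². The median profile in the brain was 17.6 µm long in the control and 17.2 µm in the thinned KO, and outside the brain 19.8 and 21.3 µm. Within profiles, *Cldn5* made up 73.8% of member molecules in the control brain and 49.8% outside it, and 72.0% and 51.7% in the thinned KO.

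**Figure D5:**
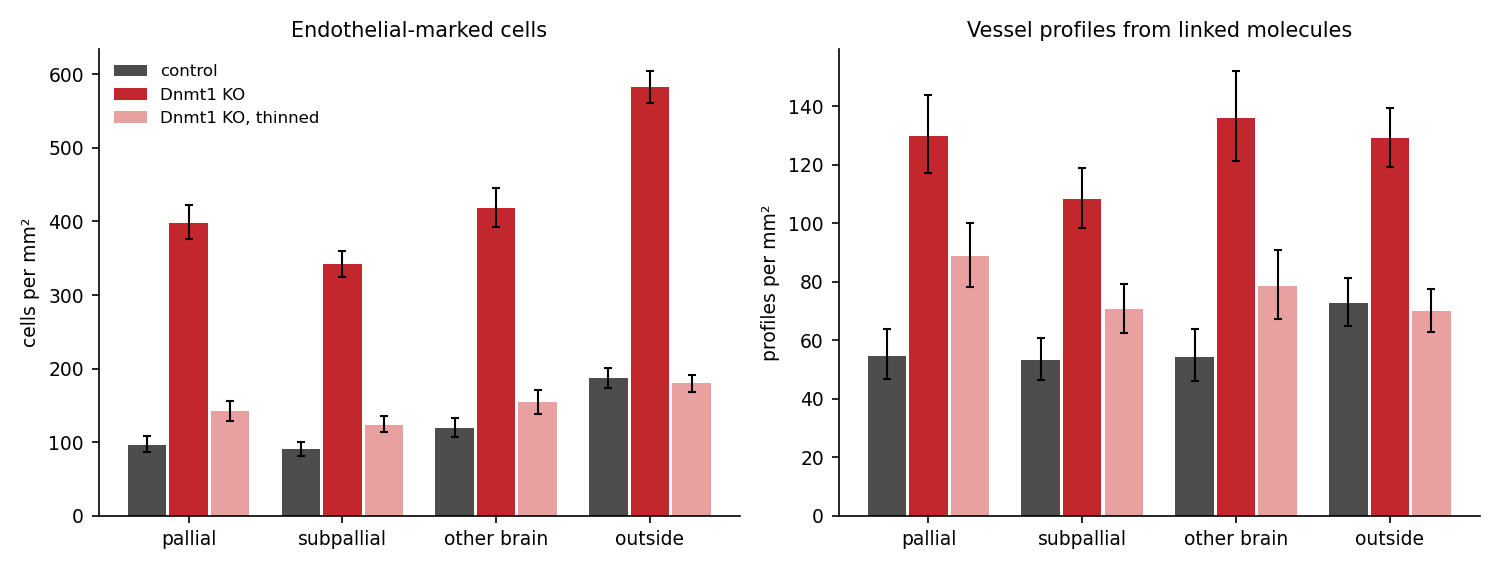
Left, endothelial-marked cells per mm², and right, vessel profiles per mm² (both linear axes from 0), by region in the control, the Dnmt1 KO and the KO thinned to the control total, with exact Poisson 95% intervals. In the brain the thinned KO lies above the control in all 3 regions of both panels (142 against 96.8 cells per mm² in the pallial region), and outside the brain the intervals of the thinned KO and the control overlap.

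The nearest endothelial-marked cell lay at a median distance of 61.2 µm from other cells in both the pallial and the subpallial region of the control. In the thinned KO the distances were 49.8 and 51.4 µm, and at full depth 34.0 and 35.7 µm. A shallow section misses such cells, so the distances depend on depth.

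The last comparison set the KO against the control. In the brain, *Cldn5* differed by -0.07 (-0.12 to -0.02) on the log2 scale, *Flt1* by 0.15 (0.02 to 0.29), *Aplnr* by 0.01 (-0.11 to 0.13) and *Adgrf5* by 0.62 (0.42 to 0.82), beside a median of 0.03 over the panel. These directions were not stable for *Cldn5*, which was at 0.32 (0.23 to 0.41) in imaging plane 0, or for *Flt1*, which was at -0.04 with a minimum of 50 transcripts per cell. With that minimum *Aplnr* was at -0.45 (-0.61 to -0.29). None of the 4 passed 2-fold, as did 3.4% of 500 panel genes upward and 3% downward. The sum of the 4 was at 5116 CPM in the control and 5122 CPM in the KO (0.00, from -0.04 to 0.04). Over 11 alternatives its log2 difference ran from -0.29 to 0.32. *Adgrf5* stood at the 87.4th percentile of the panel. It was also the higher gene outside the brain, where it differed by 0.97 (0.74 to 1.19), with *Cldn5* at 0.37 (0.29 to 0.45), *Flt1* at 0.40 (0.25 to 0.54) and *Aplnr* at 0.08 (-0.01 to 0.18). The panel median there was 0.33. None of the 4 passed 2-fold over all tissue outside the brain either, beside 8.11% of 444 panel genes upward and 0.225% downward, while beyond the edge band alone *Adgrf5* differed by 1.08 (0.83 to 1.34). *Adgrf5* was also the gene nearest to the blank level.

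The density of endothelial-marked cells in the brain was compared after thinning the KO to the control's whole-section total, which does not match depth within each region. The thinned KO held 137 per mm² of brain (130 to 145) against 100.2 in the control (94.1 to 107), and 14.8 against 11.4 per 1000 cells. Panel transcripts per mm² of brain were 240187 in the thinned KO and 213484 in the control, and cells per mm² 9246 and 8789. The gap was wider in the edge band, part of which lies outside the brain, at 465 (428 to 505) against 296 (267 to 328) per mm². In the interior it was 110 (103 to 118) against 89.8 (83.8 to 96.1). Panel transcripts per mm² were 172335 against 135657 in the edge band and 243894 against 219496 in the interior. Outside the brain the densities were 180 (168 to 192) and 187 (174 to 201), at 124022 and 168176 panel transcripts per mm², and 40.6 and 39.1 per 1000 cells. Whether the gap in the brain belongs to the genotype, the run, the plane of section or the animal cannot be told apart with 1 section per group.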

How the data were processed

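The authors decoded and segmented the sections on the MERSCOPE instrument and deposited raw counts of molecules per segmented cell and gene (500 panel genes and 50 blanks), a table of cells with their positions, shapes and volumes (volume and stain entered as signal, of which only volume and shape were used), and a list of single molecules with positions in 7 planes (other). From these, CPM were computed over cells with at least 20 panel transcripts, without blanks. Regions were drawn on a 25 µm grid smoothed with an SD of 50 µm, parts under 0.3 mm² left out. *Meis2* was left out of the pallial outline after the maps had been seen. With 1 section per group no test was run. A ratio's bounds set the lower Poisson bound of one sum against the upper bound of the other. Past 2-fold was read over genes with at least 30 transcripts on both sides. Thinned KO counts kept 21.2% of transcripts at random. No doublet caller was run. The calculation of ratios was checked on simulated counts with known folds, which is no test of the results above. Named genes were the members, a vascular list, the 5 most correlated genes per member and the 10 highest in endothelial-marked cells. Members and lists were chosen with earlier results of these data known. Python 3.11.15, numpy 2.4.6, scipy 1.17.1, pandas 2.3.3 and matplotlib 3.10.9 were used. Alternatives covered the minimum per cell, depth, outlines, molecules, planes, blanks, sides of the section and large cells.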

Additional observations from a re-analysis of the deposited data

Results flagged for a closer look

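*Adgrf5* lay on opposite sides of 0 in the sections for its pallial over subpallial level, at -0.0792 on the log2 scale in the control and 0.0402 in the KO. Both intervals include 0, and the difference between the sections was not tested. After thinning to the control total the KO value was -0.21 (-0.60 to 0.18), on the side of the control.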

How the results depend on the processing

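Summed over the 4 genes, brain over outside stayed below 0 under all 12 control and 13 KO alternatives, from -1.04 to -0.13 and from -1.61 to -0.41. It moved beyond counting error with the outline: -0.13 (control) and -0.48 (KO) at a neural share of 30%, -1.04 and -1.61 at 70%, and -0.16 and -0.41 with a smoothing SD of 100 µm. By side of the section it was -0.48 and -0.80 in the control and -1.12 and -0.998 in the KO. A minimum of 50 transcripts gave -0.29 in the control. In the KO all decoded molecules gave -0.90, plane 0 gave -0.81 and subtracting the median blank gave -1.10. For *Cldn5* alone the KO direction turned, to 0.55 at 30% and 0.55 with the wider smoothing, and the control, at -0.04, turned in 4 of 12 alternatives, to 0.99 and 0.82 in the same settings, 0.40 with a minimum of 50 and 0.09 on 1 side.

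The percent of *Cldn5* cells with another member moved with depth and with the cells counted. In the control it was 37.3% with no minimum, 39.1% with 10, 50.5% with 50, 38.3% in the brain and 56.6% with at least 2 *Cldn5* transcripts. In the KO it was 45.9% after thinning, 56.4% in the brain and 78.6% with at least 2. The pallial over subpallial density in the control was -0.49 on 1 side and 0.49 with the wider smoothing, and 0.39 with *Meis2* in the outline (0.37 in the KO). In the KO it was 0.44 with the wider smoothing, and it turned to -0.0105 at a neural share of 70% and to -0.0437 without the outer 50 µm of the brain, an alternative chosen after seeing the data.

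KO over control in the brain, 0.00 for the sum, was 0.0774 with no minimum, 0.0652 with 10, -0.29 with 50, 0.14 for all molecules, 0.32 for plane 0 and -0.11 at a neural share of 70%. Its direction for *Cldn5* turned with no minimum (0.00325), all molecules (0.0670) and plane 0 (0.32), and for *Flt1* with a minimum of 50 (-0.0418), and *Aplnr*, at 0.01, fell below 0 in 4 of 11 alternatives, to -0.45 (-0.61 to -0.29) with a minimum of 50 and to -0.11 (-0.21 to -0.00447) at a neural share of 30%. *Adgrf5* stayed above 0 under all 11 alternatives, from 0.42 to 0.94. Except where a setting leaves out cells or molecules by construction, the cause was not tested. No paired analysis was possible because each group is 1 section. The control depth of 20 transcripts per cell limits *Adgrf5* most, with 776 transcripts in the whole section.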
